A study of Mus musculus with 16 samples.

Results

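The cytosolic ribosomal protein genes were followed in natural killer (NK) cells from the tumour-draining lymph nodes and the lungs of tumour-bearing mice, with and without diphtheria toxin. The genes were taken by name: protein-coding rows called Rpsa, or Rpl or Rps followed by a number or by p0 to p2, with an optional a, x or l at the end. This rule gave 81 of 49671 rows, 50 of them for the large (60S) and 31 for the small (40S) ribosomal subunit. Of the 81, 4 that are named below lay too low for a test, so 77 members entered the comparisons.

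All mice were FVB/N of genotype Cdh1F/F;Trp53F/F;Foxp3GFP-DTR, with floxed Cdh1 and Trp53 alleles and a fusion of GFP and the diphtheria toxin receptor at Foxp3, and carried an orthotopically transplanted KEP mammary tumour of 100 mm2. The LN PBS and LN DT groups are NK cells of the axillary tumour-draining lymph node from mice given PBS or 25 ug diphtheria toxin (DT) at T=0 and T=7 (time unit not stated), and lung PBS and lung DT are NK cells from lungs, which were digested with Liberase. The receptor sits in cells that express Foxp3, chiefly regulatory T cells, so DT acts on those cells and the NK cells are read out. The 4 groups have 4 libraries each, made by Smart-seq2 from sorted live CD45+ CD3- NKp46+ DX5+ cells, and the design text states biological replicates.

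Each ribosomal protein is needed in about equal number to build a ribosome, and in dividing or activated lymphocytes their synthesis takes a large part of the cell's effort. Most of their mRNAs start with a run of pyrimidines, the 5′ terminal oligopyrimidine tract, through which mTOR signalling sets how well they are translated. MYC raises transcription of the same genes. A measurement of RNA, as here, does not show the translational step. In bulk samples, a change in which cells make up the sample and a change of RNA per cell cannot be told apart.

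Total counts ran from 3929560 to 10744934 per library. Summed NK cell markers (9 genes) stood at 21796 to 67072 CPM (counts scaled to a fixed library size) and summed T cell markers (9 genes) at 136 to 828 CPM, the highest in the LN DT library numbered 1. Mitochondrially encoded genes took 1.05% to 1.68% of counts in LN PBS and 0.951% to 2.57% in lung PBS, against 1.24% to 4.93% in LN DT and 3.11% to 4.40% in lung DT. The LN DT library numbered 4 is the one at 1.24%, and the other 3 LN DT libraries lay at 4.01% or more. LN PBS library 2 also stood apart: 76 of the 77 tested members lay above their own mean over all libraries there.

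Rps27 and its paralogue Rps27l are shown first, because Rps27l is the member with a called change and because both must be told apart by their reads. Both encode the small subunit protein eS27, and Rps27l is known as a transcriptional target of p53. Their coding sequences (GENCODE M21 on GRCm38, the build of the deposited counts) are both 255 nucleotides long, and capitals mark the bases that differ between them.
Rps27: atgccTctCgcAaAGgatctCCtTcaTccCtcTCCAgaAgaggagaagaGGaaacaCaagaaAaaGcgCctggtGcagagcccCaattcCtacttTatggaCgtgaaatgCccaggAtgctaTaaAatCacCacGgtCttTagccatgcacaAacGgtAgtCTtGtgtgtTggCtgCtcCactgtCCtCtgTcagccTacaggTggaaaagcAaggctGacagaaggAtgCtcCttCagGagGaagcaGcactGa
Rps27l: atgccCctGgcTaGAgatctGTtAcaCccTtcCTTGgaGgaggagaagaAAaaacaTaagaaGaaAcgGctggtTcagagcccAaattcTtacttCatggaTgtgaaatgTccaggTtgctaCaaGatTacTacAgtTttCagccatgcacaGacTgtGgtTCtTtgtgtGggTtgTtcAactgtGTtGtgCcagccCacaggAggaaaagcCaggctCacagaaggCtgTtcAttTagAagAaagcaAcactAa
The sequences differ at 61 bases, 53 of them at the third position of a codon, and are 76.1% identical. The longest stretch they share is 11 bases, so a read within the coding sequence can be placed on one of them. Rps27 lies at chr3:90212522-90213651 and Rps27l at chr9:66946086-66949516.

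Start-site windows were taken from RefSeq (GRCm38.p6) for these genes and for Rpl34 and Rpl4, the members with the smallest p in lymph node among those above and those below 0. Each window covers 15 bases on each side of the start and reads on the gene's strand, with the longest run of C and T in capitals.
Rps27, chr3:90213634-90213663, minus strand: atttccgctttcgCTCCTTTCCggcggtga
Rps27l, chr9:66946071-66946100, plus strand: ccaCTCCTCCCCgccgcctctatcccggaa
Rpl34, chr3:130730323-130730352, minus strand: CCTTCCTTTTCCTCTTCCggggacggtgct
Rpl4, chr9:64173372-64173401, plus strand: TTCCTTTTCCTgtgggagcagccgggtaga
A C followed by 4 bases that are each C or T was searched on the gene's strand in all such windows. It was found in 43 of 72 member windows (59.7%, 60 genes with a RefSeq start) and in 36.4% of 32851 windows of all genes. A match could lie on either side of the start, so it need not be a 5′ terminal tract of the mRNA. The marked runs of Rps27 and Rpl34 span the RefSeq start, while those of Rps27l and Rpl4 end before it. RefSeq lists a further start for Rps27l and for Rpl34 that is not printed: that of Rps27l has no match (longest run 4) and that of Rpl34 has one (longest run 8).

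The members together took a small share of the counts, and that share was lowest in lung NK cells of PBS mice. It was 1.52%, 2.70%, 1.72% and 1.80% in LN PBS libraries 1 to 4, and 1.59%, 2.24%, 2.15% and 1.89% in LN DT. In lung PBS it was 1.23%, 1.81%, 1.05% and 1.26%, and in lung DT 1.35%, 1.79%, 1.78% and 1.09%. All 4 groups overlapped. The means of the lymph node groups were 1.94% ± 0.525 with PBS and 1.97% ± 0.296 with DT (SD, n = 4). Those of the lung groups were 1.34% ± 0.327 with PBS and 1.50% ± 0.341 with DT. The differences of 0.0318 percentage points between LN DT and LN PBS and 0.167 between lung DT and lung PBS were smaller than the pooled SD of 0.383, which includes LN PBS library 2. Leaving out 1 library gave -0.106 (without LN PBS library 1) to 0.288 (without LN PBS library 2) in lymph node. In lung it gave 0.0693 (without lung PBS library 3) to 0.323 (without lung PBS library 2). The large subunit took 1.13% ± 0.273 and the small subunit 0.802% ± 0.254 in LN PBS.

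**Figure D1:**
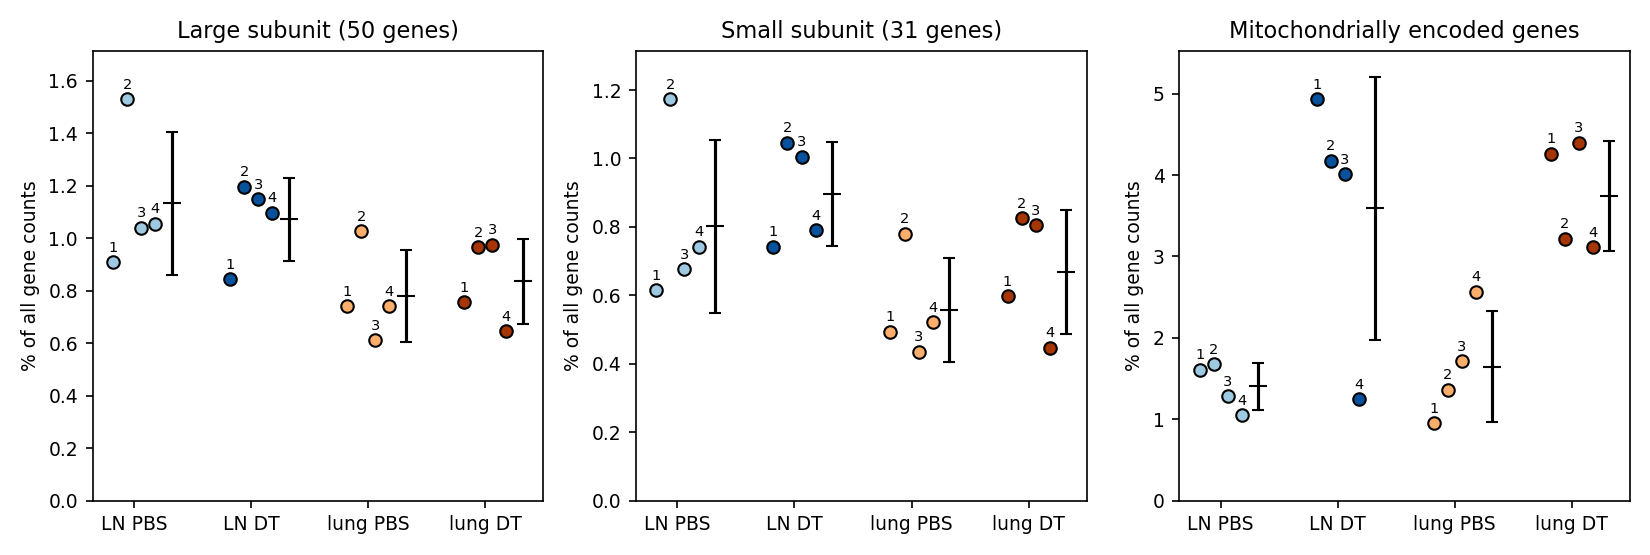
Share of all gene counts in each library for large subunit members, small subunit members and mitochondrially encoded genes, with the library number beside each point and mean ± SD (n = 4) as a bar. LN PBS library 2 has the highest share of both subunits (1.53% and 1.17%), and LN DT library 4 the lowest mitochondrial share of its group (1.24%).

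Per kilobase of coding sequence, the members spanned a wide range although their proteins are used in equal number. The median over the 77 tested members was 380 CPM per kilobase (mean of the 4 group means), with quartiles at 269 and 591. Rpl41, the shortest member with 78 coding nucleotides, led at 3162, followed by Rps27 at 2286, Rps3 (an mRNA channel protein) at 1064 and Rps29 at 985. Division by coding length favours short members whose reads fall on untranslated parts: per kilobase of transcript, Rps27 ranked at 1 and Rpl41 at 12. The lowest tested members were Rpl21 at 88.2, Rpl13a at 34.9, Rpl29 at 32.6, Rpl23a at 11.97 and Rpl24 at 7.15 CPM per kilobase. The table also holds 273 rows of numbered pseudogenes named for 58 of the members, 14 each for Rpl21 and Rpl23a and 0 for Rpl24. These rows held 0.484 to 1.01 counts for every 100 on members. Only rows whose symbol holds a member's name were found, so copies listed under other names are not counted. How many reads shared between members and their processed copies were dropped in counting was not tested, so the levels of such members are uncertain.

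The members with the fewest counts, each named with a final l, were at or near 0. Rpl10l, known from testis, had 0 of 125182384 counts, which allows up to 0.0240 CPM (3 counts, counting error only). Rpl6l, which has no coding sequence in GENCODE M21, had 34 counts in all and Rpl39l had 76, against 8909 for Rpl39. Rpl3l, known from striated muscle, had 120 counts, of which 51 fell in each of lung DT libraries 2 and 3 and 10 in lung PBS library 4. These were the 4 members left untested.

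Rps27l rose with DT when the effects in both tissues were averaged. Its level in LN PBS libraries 1 to 4 was 87.8, 203, 104 and 119 CPM, and in LN DT 617, 354, 299 and 142 CPM. In lung PBS it was 39.1, 128, 105 and 109 CPM, and in lung DT 183, 251, 193 and 99.9 CPM. In each tissue DT libraries 1 to 3 lay above all PBS libraries, and DT library 4 lay within the PBS range. The mean of both log2 fold changes was 1.20 ± 0.306 (SE; adjusted p = 0.0425, edgeR quasi-likelihood test with Benjamini-Hochberg adjustment over 13940 genes). Rps27l was the 1 member called higher and 0 were called lower in this average, where 2.47% of all tested genes were called higher and 1.43% lower. The fit takes the 16 libraries as independent, while LN DT and lung DT libraries of the same number deviated together (correlations of 0.184 to 0.412). With the replicate number as a block the value was 1.16 (adjusted p = 0.0493), and Rpl41 and Rps24 were then called higher too. The share of all genes called with this block is not given here. That block also joins PBS and DT libraries of the same number, which come from different mice. It therefore does not model what LN DT and lung DT libraries alone share. Within a tissue its change was not called: 1.46 ± 0.434 in lymph node (adjusted p = 0.219) and 0.936 ± 0.430 in lung (adjusted p = 0.324).

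The call is a close one. It was lost in 11 of the 16 fits that left out 1 library and held without lung DT 1 or 4, lung PBS 4, LN DT 4 or LN PBS 2, with adjusted p from 0.0115 to 0.0914 and log2 fold changes from 0.933 to 1.35 over the 16. Without both DT libraries numbered 1 it was 0.956 (adjusted p = 0.0447). With the mitochondrial share of each library as a covariate the value fell to 0.0928 (adjusted p = 1.00). In lung alone it was -0.0468. That share was 0.951% to 2.57% in lung PBS and 3.11% to 4.40% in lung DT, without overlap. In lymph node LN DT library 4 alone lay within the PBS range. The covariate thus largely follows DT, so the fall cannot be assigned to either, and the part of the share was not tested. With an offset for GC content and length, chosen after seeing the data, it was 0.795 (adjusted p = 0.0873). With DESeq2 it was 1.23 (adjusted p = 0.00334).

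Rps27 itself was also not called in either tissue. It stood at 360, 783, 453 and 595 CPM in LN PBS, 710, 800, 775 and 671 in LN DT, 492, 879, 441 and 523 in lung PBS, and 513, 478, 526 and 331 in lung DT. Its log2 fold change was 0.432 ± 0.276 in lymph node (adjusted p = 0.573) and -0.337 ± 0.276 in lung (adjusted p = 0.591). Of the counts on both genes, Rps27l therefore held 18.9% ± 1.68 with PBS and 30.6% ± 12.01 with DT in lymph node (SD, n = 4). In lung the shares were 14.1% ± 5.28 with PBS and 27.7% ± 4.79 with DT. In lung the groups did not overlap, at 7.37% to 19.3% and 23.2% to 34.5%. In lymph node LN DT library 4, at 17.5%, lay within the PBS range of 16.7% to 20.6%.

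**Figure D2:**
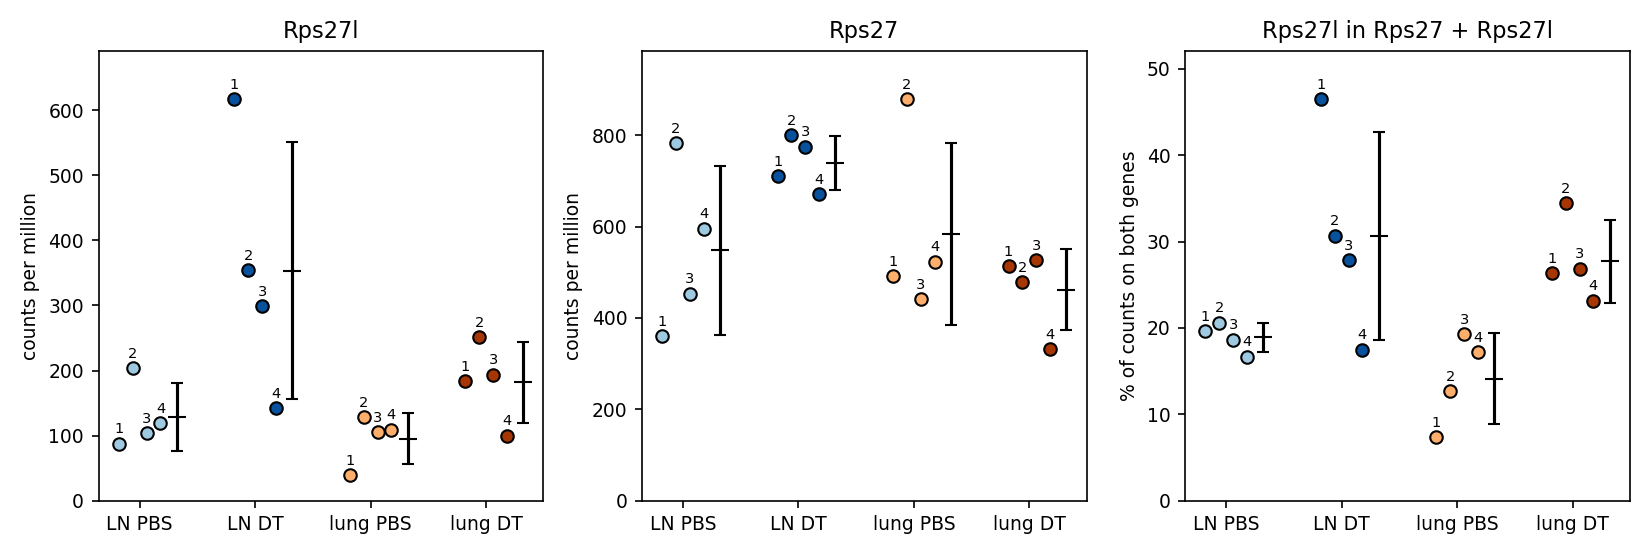
Rps27l and Rps27 in CPM on TMM-scaled sizes, and Rps27l as a percent of the counts on both genes, for each library (number beside the point) with mean ± SD (n = 4). Rps27l is highest in LN DT library 1 (617 CPM), while Rps27 lies between 331 and 879 CPM in all groups.

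In lymph node, no member passed the test for a change with DT. edgeR called 0 of 77 higher and 0 lower, against 0.0646% and 0% of all tested genes. At an unadjusted p under 0.05 there were 8 above 0 and 1 below, or 10.4% and 1.30%, against 8.29% and 3.52% of all genes. DESeq2 called 2 higher (Rpl34 and Rps27l, background 1.89%) and 0 lower (background 0.445%). limma-voom with quality weights called 21 higher and 7 lower (backgrounds 14.9% and 11.9%). The members' median log2 fold change was 0.124, with 30 of 77 below 0, against 0.0812 and 45.1% over all genes. Without LN PBS library 2 the median was 0.430, and with the GC and length offset -0.0340. Among genes with a mean of at least 50 CPM, 26 of 71 members lay below 0 with a median of 0.150, against 55.1% and -0.0637 over 4287 genes. Plasma cell markers (8 genes, none at 0) summed to 598 to 1439 CPM in LN DT and 246 to 322 CPM in LN PBS, and the part of these cells in the values was not tested.

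Among members of the large subunit, Rpl34 had the smallest p in lymph node. It stood at 126, 217, 118 and 131 CPM in LN PBS and at 318, 334, 316 and 181 CPM in LN DT. LN DT libraries 1 to 3 lay above all of LN PBS and library 4 within its range. The log2 fold change was 0.955 ± 0.276 (adjusted p = 0.209), and in lung it was 0.393 ± 0.274 (adjusted p = 0.519). Rpl35, which sits at the exit of the peptide tunnel, reached 640 CPM in LN DT library 1 and 542 in lung DT library 1, against at most 319 in any other library. Its change in lymph node was 1.04 ± 0.424 (adjusted p = 0.347), and 0.555 without LN DT library 1.

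Rpl4, which lines the exit tunnel and is the longest tested member with 1260 coding nucleotides, went the other way. It stood at 1178, 1373, 1473 and 1309 CPM in LN PBS and at 621, 667, 723 and 1359 CPM in LN DT. LN DT libraries 1 to 3 lay below all of LN PBS and library 4 within its range. The log2 fold change was -0.662 ± 0.261 (adjusted p = 0.327). Without LN DT library 4 it was -0.994, and Rpl4 was then the 1 member called lower. The share of all genes called in that fit is not given here. In lung the log2 fold change of Rpl4 was -0.498 ± 0.261 (adjusted p = 0.386).

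Rps21, of the small subunit, had a lymph node change of 0.873 ± 0.344 (adjusted p = 0.327) and 0.680 ± 0.343 in lung (adjusted p = 0.367). Rpl24, the member with the fewest counts among those tested, was the 1 member whose LN DT libraries all lay above LN PBS (1.30% of 77, against 5.05% of all genes), and 0 lay below (against 3.42%). It had 0.841, 1.82, 1.86 and 0.792 CPM in LN PBS and 3.94, 4.09, 4.45 and 1.98 CPM in LN DT, from 7 to 37 counts a library. Its log2 fold change was 1.44 ± 0.737 (adjusted p = 0.461).

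By role in the ribosome, the P stalk recruits the elongation factors. Its base Rplp0 had a lymph node change of -0.402 ± 0.226 (adjusted p = 0.513), while Rpl12, which sits at the stalk base, had 0.494 ± 0.326 (adjusted p = 0.585), and 0.887 without LN PBS library 2. Levels of the stalk proteins Rplp1 and Rplp2 were 172 ± 71.7 and 113 ± 48.2 CPM in LN PBS, and 178 ± 24.7 and 128 ± 15.1 CPM in LN DT. Rpl5 and Rpl11 bind 5S rRNA and, outside the ribosome, hold back Mdm2. Rpl5 was at 759 CPM in LN DT library 1 and at 370 to 382 in the other 3, and at 615 CPM in lung DT library 1 against 267 to 306. So its high values come from the DT libraries numbered 1, and Rpl11 showed none there (152 and 114 CPM). Over 4183 genes, deviations in LN DT library 1 and lung DT library 1 had a Spearman's rho with coding GC content of -0.498 and -0.450. In the other libraries it ran from -0.131 to 0.388. Coding GC content is 45.9% in Rpl5, 53.3% in Rpl11 and 54.6% in Rpl35, which also peaked in those libraries. The part of GC content was not tested.

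Of the 9 exit tunnel members 6 lay above 0 in lymph node and 5 in lung, with 0 called. Over all tested genes 7617 of 13940 lay above 0 in lymph node and 7595 in lung. Of these genes 0.0646% and 0.0574% were called higher, and 0% and 0.0502% lower. Rpl39, at the narrow end of the tunnel, had 0.611 ± 0.399 in lymph node (adjusted p = 0.581), and 1.06 without LN PBS library 2. Of the 7 mRNA channel members in the table, 4 lay below 0 in lymph node and 3 in lung, against 45.1% and 45.5% of all tested genes. Rps2 stood at 111 to 239 CPM in LN PBS and at 43.7, 103, 104 and 199 CPM in LN DT (-0.635 ± 0.441, adjusted p = 0.605). Without LN DT library 1 its change was -0.403, and without LN DT library 4 -1.07. Rps3 was near 0 in lymph node at 827 ± 213 and 895 ± 59.8 CPM. Rpl10, which helps form the peptidyl transferase centre, was among the steadiest, at 393 ± 113 and 397 ± 21.6 CPM in lymph node and 388 ± 114 and 390 ± 74.3 CPM in lung, each with PBS first and DT after it.

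Members of a list named for signalling included Rps6, whose protein is phosphorylated by S6 kinases, at 258 ± 60.8 CPM in LN PBS and 281 ± 23.6 in LN DT. Rps27a, which is made as a fusion with ubiquitin, had 0.653 ± 0.300 in lymph node (adjusted p = 0.405) and 0.579 ± 0.300 in lung (adjusted p = 0.380). Rpsa, also known as a laminin receptor, was at 205 ± 89.1 and 156 ± 23.1 CPM in lymph node. Rpl38 had 0.620 ± 0.299 in lymph node (adjusted p = 0.430), and 0.413 without LN PBS library 1.

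In lung, too, no member was called with DT. edgeR called 0 higher and 0 lower, against 0.0574% and 0.0502% of all genes, and DESeq2 (backgrounds 1.97% and 1.3%) and limma-voom (1.8% and 1.32%) each called 0. At an unadjusted p under 0.05 there were 3 members above 0 and 1 below, against 7.66% and 7.06% of all genes. The median was 0.131 with 25 of 77 below 0, against 0.0887 and 45.5% over all genes. Among genes with a mean of at least 50 CPM, 22 of 71 members lay below 0, against 58.4% of 4287 genes. The number below 0 rests on single controls: of 77 it was 12 without lung PBS library 2, and 46 without lung PBS library 3, where the median was -0.0256. Dendritic cell markers (9 genes, Clec9a at 0 in lung PBS) summed to 129 to 198 CPM in lung DT and 66.5 to 104 CPM in lung PBS. Lung PBS library 2 and lung DT libraries 2 and 3, where 65, 53 and 50 of the members lay above their own mean, had the highest sums of B cell markers (10 genes; 5253, 2233 and 3545 CPM) and of macrophage markers (9 genes; 3662, 3933 and 3399 CPM) among the lung libraries. Lung PBS library 3 and lung DT library 4, with 2 members each above their mean, had 261 and 198 CPM of B cell markers and 285 and 135 CPM of macrophage markers. In lymph node, LN PBS library 2, with 76 members above their mean, had 826 CPM of B cell markers. Its macrophage sum of 38.8 CPM was the lowest of all 16 libraries. No gene of these lists was at 0 in a whole group, and the part of such cells was not tested.

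Rps25, known for its part in initiation at internal ribosome entry sites, had the smallest p in lung. It stood at 122, 179, 151 and 158 CPM in lung PBS and at 414, 276, 287 and 147 CPM in lung DT, so library 4 alone lay within the PBS range. The log2 fold change was 0.883 ± 0.361 (adjusted p = 0.278), and 0.582 without lung DT library 1. Rps24 stood at 106, 217, 116 and 148 CPM in lung PBS and 193, 358, 343 and 160 in lung DT, a change of 0.847 ± 0.367 (adjusted p = 0.301). Rpl41 had 0.589 ± 0.281 (adjusted p = 0.340).

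Averaged over both tissues, several members came close to the threshold without passing it. Rpl34 had 0.674 ± 0.194 (adjusted p = 0.0572), Rps25 0.848 ± 0.255 (adjusted p = 0.0660), Rps21 0.776 ± 0.243 (adjusted p = 0.0743) and Rpl4 -0.580 ± 0.184 (adjusted p = 0.0777). With the mitochondrial share as covariate these values were 0.0103 for Rpl34, 0.00998 for Rps25, 0.114 for Rps21 and -0.0468 for Rpl4. As for Rps27l, this covariate largely follows DT, and the part of that share was not tested. Of the 77 members 26 lay below 0, against 44.7% of all genes. At an unadjusted p under 0.05 there were 11 above 0 and 2 below, against 13.7% and 9.39% of all genes. DESeq2 called 8 higher and 1 lower (backgrounds 7.63% and 3.78%), and limma-voom 23 and 2 (backgrounds 14% and 13.1%). Without LN DT library 4 the count rose from 1 and 0 to 7 higher and 2 lower, without LN PBS library 2 to 5 higher, and without lung DT library 4 to 3 higher. The shares of all tested genes called in these fits are not given here. The rise is therefore not a result about the members alone. These averages use the same libraries as the comparisons within each tissue.

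The size of the change with DT followed the length of the coding sequence in lymph node. The 39 members with at most 456 coding nucleotides had a median log2 fold change of 0.292, with 33 above 0. The 38 longer members had a median of -0.199, with 14 above 0. Across the 77 members Spearman's rho between coding length and the change was -0.635 in lymph node and -0.196 in lung. Members share their libraries and are not independent, so these are descriptions. Over 2130 genes of at least 50 CPM in the same range of coding length, rho was -0.257 and -0.162. With coding GC content, rho was -0.363 and -0.327 over the members, against -0.347 and -0.145 over 4183 genes of at least 50 CPM. In lung the shorter and longer members had medians of 0.155 and 0.0938. RNA quality values of these samples were not used here, and fragmentation or coverage along transcripts was not tested.

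**Figure D3:**
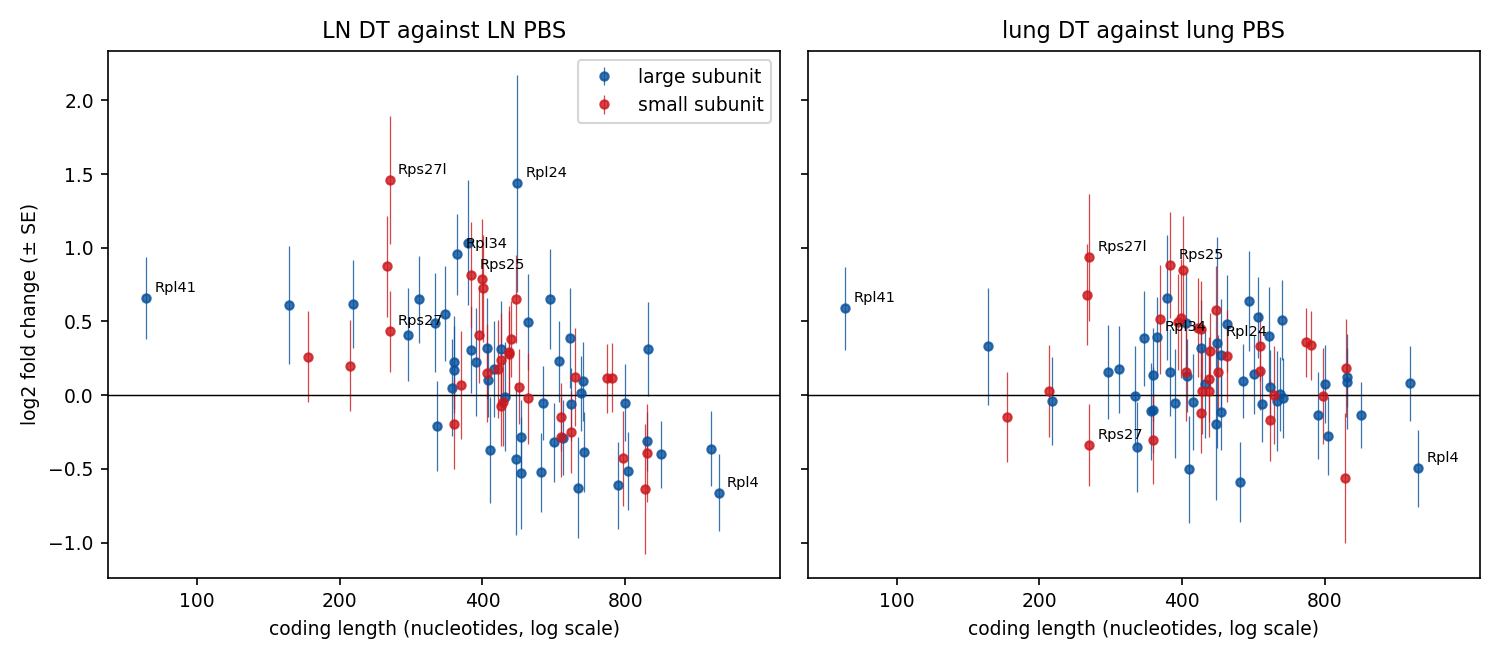
Log2 fold change with DT (± SE) of the 77 tested members against coding length on a log scale, in lymph node and in lung. In lymph node most short members lie above 0 and Rpl4, the longest, lies at -0.662, while in lung the medians of shorter and longer members are 0.155 and 0.0938.

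The relation to coding length was also followed in each library. Spearman's rho between coding length and the members' deviations from their own means was -0.357, -0.651 and -0.714 in LN DT libraries 1 to 3 and -0.0320 in library 4. In LN PBS libraries 1 to 4 it was 0.698, 0.0999, 0.485 and 0.350. In lung PBS libraries 1 to 4 it was 0.356, -0.0437, 0.266 and 0.140, and in lung DT 0.0789, -0.265, -0.176 and 0.259. The means run over all 16 libraries, so values of opposite sign balance each other. Positive values in PBS libraries therefore do not show a pattern apart from DT. The SD of the members' deviations was 0.548 in LN DT library 1 and 0.221 in library 4.

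**Figure D4:**
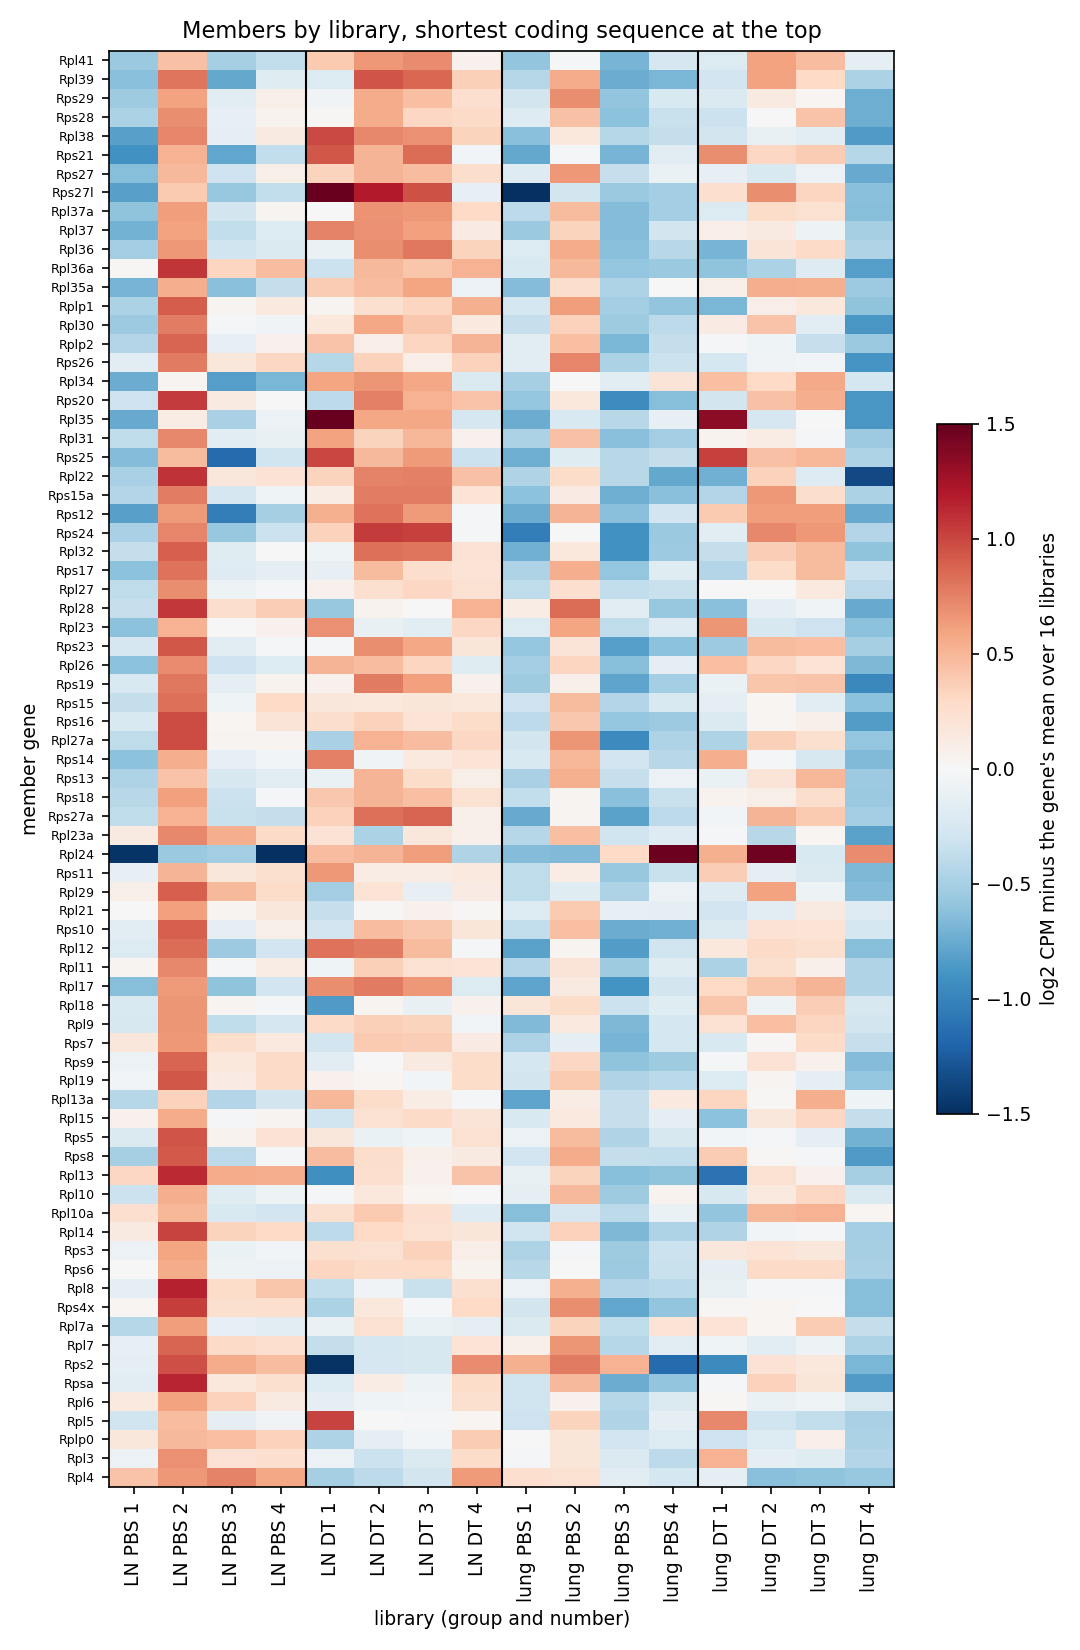
Log2 CPM of 76 tested members in each library minus that gene's mean over the 16 libraries, from blue (lower) to red (higher) with the colour scale ending at -1.5 and 1.5, members ordered by coding length with the shortest at the top. LN PBS library 2 is red in 75 of 76 rows, and lung PBS library 3 and lung DT library 4 are blue in all but 2 rows each.

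No member passed the test of a difference between the effects of DT in the 2 tissues. In the test of the lymph node effect minus the lung effect edgeR, DESeq2 and limma-voom each called 0 members higher and 0 lower, edgeR against 0.00717% and 0% of all genes and DESeq2 against 0.129% higher. By edgeR 0 members had an unadjusted p under 0.05, against 2.88% of all genes above 0 and 1.33% below. The smallest p was that of Rps27, with a difference of 0.769 ± 0.391 (adjusted p = 1.00, edgeR). Rpl38 followed with 0.659 ± 0.423, Rpl6 with -0.434 ± 0.283, Rpl29 with -0.799 ± 0.539 and Rps7 with -0.479 ± 0.328, all at an adjusted p of 1.00. For Rps27l the difference was 0.522 ± 0.603. A missed threshold does not show that the effects were equal. Of the 77 members 39 lay above 0 in both tissues and 17 below 0 in both. The shares of all tested genes with the same sign in both tissues are not given here.

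In mice given PBS, the members lay lower in lung than in lymph node NK cells, by amounts that rest in large part on 1 library. The lungs were digested with Liberase, so tissue and preparation cannot be told apart in any comparison of lung with lymph node. Of 77 members 71 lay below 0 (92.2%), against 50.7% of all tested genes, with a median log2 fold change of -0.329 against -0.0119. Without LN PBS library 2 the count was 46 and the median -0.0552. edgeR called 0 members higher and 0 lower, against 2.7% and 0.904% of all genes. At an unadjusted p under 0.05 there were 7 below 0 and 0 above, against 6.54% and 10.3%. DESeq2 called 2 lower (Rpl6 and Rps7, background 2.86%) and limma-voom 9 (background 7.57%), with 0 higher by either (5.59% and 8.9%). With total counts as the scaling, the median of all genes moved by -0.168, and the members' median moved with it to -0.493.

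**Figure D5:**
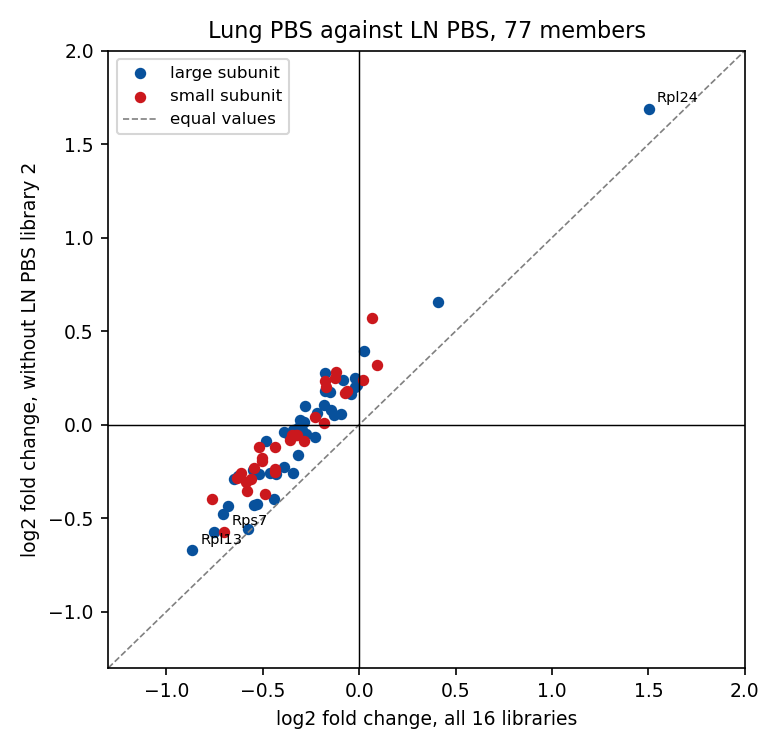
Log2 fold change of lung PBS over LN PBS for each of the 77 tested members with all 16 libraries (x axis) and without LN PBS library 2 (y axis), with the line of equal values dashed. All 77 points lie above the dashed line, and those below 0 number 71 on the x axis and 46 on the y axis.

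Rps7, of the small subunit, had the smallest p between the tissues. It stood at 339, 471, 361 and 331 CPM in LN PBS and at 217, 273, 184 and 249 CPM in lung PBS, and the groups did not overlap. The log2 fold change was -0.702 ± 0.233 (adjusted p = 0.106). Rpl6 (-0.531 ± 0.200, adjusted p = 0.165), Rpl4 (-0.575 ± 0.261, adjusted p = 0.268) and Rpl29 also did not overlap. These were 4 of 77 members (5.19%), against 9.91% of all genes lower without overlap and 9.25% higher, where 0 members lay. Rpl14 had -0.707 ± 0.272 (adjusted p = 0.175), Rpl13 -0.866 ± 0.341 (adjusted p = 0.187) and Rpl36a -0.679 ± 0.305 (adjusted p = 0.264). Rpl24 pointed the other way at 1.50 ± 0.738 (adjusted p = 0.318), and at 0.790 without lung PBS library 4, which had 8.19 CPM against 1.67 to 3.51 in the other 3. T cell markers summed to 502 to 540 CPM in LN PBS and 136 to 183 CPM in lung PBS (Cd8b1 at 0), and erythroid markers to 1.21 to 28.1 CPM in LN PBS and 272 to 1001 CPM in lung PBS. The part of such cells was not tested.

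Other genes of the translation machinery were taken from lists by role. Translation factors lay below 0 with DT for 33 of 40 genes in lymph node (median -0.323) and 29 of 40 in lung (median -0.363), with 0 called in either tissue. Eif6, which keeps the subunits apart, had -1.01 ± 0.272 in lymph node (adjusted p = 0.177), and Eif5a, needed for elongation through proline runs, had -1.03 ± 0.269 in lung (adjusted p = 0.122). Over all genes 45.1% and 45.5% lay below 0, and 55.1% and 58.4% where the mean was 50 CPM or more. In the average over tissues 4 of the 40 were called lower and 0 higher, against 1.43% and 2.47% of all genes. Genes of ribosome biogenesis lay below 0 for 29 of 40 in lymph node (median -0.330) and 34 of 40 in lung (median -0.417), with 1 called lower in the average, Rcl1 (-0.980 ± 0.266, adjusted p = 0.0481). The members' own medians were 0.124 and 0.131, and turned below 0 in the settings given beside them. The difference between these lists and the members was not tested.

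Among ribosomal proteins that the naming rule leaves out, Rpl7l1, a relative of Rpl7, was called lower in the average of both tissues (-0.691 ± 0.177, adjusted p = 0.0425). It was 1 of 7 such genes tested, with 0 called higher, against 1.43% of all genes lower and 2.47% higher. Rpl22l1, a relative of Rpl22, had 0.712 ± 0.240 (adjusted p = 0.0920). Of the counts on Rpl22 and Rpl22l1 together, Rpl22l1 held 47.5% ± 6.89 with PBS and 54.5% ± 8.87 with DT in lymph node, and 58.4% ± 11.1 with PBS and 71.0% ± 8.29 with DT in lung (SD, n = 4). Rps3a is listed as Rps3a1, outside the rule, and had -0.267 ± 0.266 in lymph node (adjusted p = 0.734). Of 24 genes of mTOR and MYC control, 2 were called higher in lung PBS than in LN PBS and 1 lower, against 2.7% and 0.904% of all tested genes. These were Rraga, a Rag GTPase (2.16 ± 0.457, adjusted p = 0.0114), Max, the partner of Myc (2.45 ± 0.610, adjusted p = 0.0309), and Myc (-2.05 ± 0.465, adjusted p = 0.0181). Of the 40 translation factors 1 was called higher, Eif4a1, an RNA helicase of initiation (1.68 ± 0.314, adjusted p = 0.00507), and 0 lower, beside the same shares. These 4 genes were named after their values were seen, and tissue and Liberase digestion cannot be told apart for them. Mitochondrial ribosomal proteins lay below 0 in lung PBS against LN PBS for 71 of 77 genes (median -0.486), with 0 called. Over all tested genes 50.7% lay below 0, with a median of -0.0119.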

How the data were processed

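The authors deposited one table of raw counts per gene for the 16 libraries. Reads were aligned with HISAT2 and counted with HTSeq on GRCm38, per the submitters' processing notes, with versions and counting mode not given in the sources used here. Ensembl IDs, symbols and biotypes are those of that table. The members and gene lists were chosen with earlier results of these data known. All 16 columns were used.

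Genes passing filterByExpr of edgeR 4.0.16 (R 4.3.3) by group, with a minimum count of 10 and a minimum total of 15, were scaled by TMM and fitted by the quasi-likelihood method (robust=TRUE) in one model of 4 group means (12 residual degrees of freedom). This tested 13940 genes, 77 of the 81 members. Two-sided p-values were adjusted by Benjamini-Hochberg over all tested genes, with calls at 0.05. The fit was tested on simulated data. CPM use TMM-scaled sizes, and ± is SD for CPM and SE for log2 fold changes. "Above 0" and "below 0" are signs of the log2 fold change, not calls. DESeq2 1.42.0 and limma 3.58.1 (voom) were alternatives, with other scalings, filters, covariates and each library left out. Coding lengths and sequences come from GENCODE M21 (APPRIS principal transcript, 80 of 81 members), since no protein table was used. Named members are those called, the 5 of smallest p per comparison, the 5 highest and lowest tested by level, and those in lists of roles and paralogues. Of the related lists, the 3 genes of smallest p in a DT comparison could be named. The values of 1 member are not reported here.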

Additional observations from a re-analysis of the deposited data

Results flagged for a closer look

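Of 40 measures in 4 groups each (160 groups), 21 values lay far from the other 3 of their group by Dixon's ratio. For normally distributed values chance alone gives about 1 in 20 groups. Here 35 of the measures are members that share the same libraries, so the flags are not independent. No excess can be read from their number. LN PBS library 2 held 9 of them, each above the other 3 libraries: Rpl11 261 CPM (others 157 to 172), Rpl12 253 (97.2 to 123), Rpl13a 26.4 (15.2 to 17.1), Rpl34 217 (118 to 131), Rpl41 318 (159 to 182), Rps24 361 (147 to 174), Rps27a 346 (185 to 192), Rps3 1146 (711 to 738) and Rps6 349 (222 to 238). LN DT library 4 held 4: Rpl4 1359 CPM (621 to 723) and Rpl7 344 (234 to 252) lay above, and Rpl34 181 (316 to 334) and Rps6 246 (289 to 296) below. LN DT library 1 stood apart for Rpl5 at 759 CPM (370 to 382), Rpl21 at 32.9 (42.4 to 44.0) and Rpl36a at 54.3 (90.6 to 97.8). Lung DT library 1 stood apart for Rpl5 at 615 CPM (267 to 306) and Rpl4 at 796 (569 to 593). Lung PBS library 2 stood apart for Rpl21 at 55.2 CPM (36.4 to 38.4) and Rpl39 at 97.4 (39.4 to 49.1), and lung DT library 4 for Rps3 at 541 CPM (856 to 879).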

How the results depend on the processing

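Over 54 named changes with 1657 values under alternatives, the direction and side of the threshold held in 1562, 13 calls were lost, 69 were gained and 13 changes reversed. Of the reversals, 10 came with the mitochondrial share as covariate: in lymph node Rpl35 (-0.144), Rps25 (-0.0474), Rpl12 (-0.0858) and Rps2 (0.227), in lung Rps27l (-0.0468), Rpl4 (0.0771), Rpl34 (-0.246), Rpl12 (-0.0651) and Rps2 (0.520), and Rpl35 in the average (-0.289). An offset for GC content and length, chosen after seeing the data, turned Rps27 in lymph node (-0.0298, and -0.0225 with the replicate block) and Rps27l in the difference of effects (-0.102). Because the mitochondrial share largely follows DT, reversals with that covariate cannot be assigned to either. Causes were not tested. In the average 3 members were called higher with the replicate block, with that block and the offset together, with a mean of at least 5 CPM, and without both DT libraries numbered 1 (then 1 lower), and 0 with the mitochondrial covariate. DESeq2 called 8 and 1 there and limma-voom 23 and 2; in lymph node 2 and 0, and 21 and 7. Between the tissues DESeq2 called 2 lower, limma-voom 9, and the fit of only the groups compared and that without both DT libraries numbered 1 each called 1. Leaving out 1 library gave 0 to 7 higher and 0 to 2 lower in the average, 0 to 1 lower in lymph node, and 46 to 75 members below 0 between the tissues, 12 to 46 in lung and 19 to 63 in the difference of effects. Apart from DESeq2 and limma-voom, shares over all tested genes are not given here for these alternatives. Their counts are therefore not results about the members alone. Same-number correlations were 0.0295 to 0.145 between LN PBS and LN DT and -0.127 to 0.207 in lung, and LN DT and lung DT had 0.184 to 0.412. Between PBS and DT, the best match had the same number for numbers 1, 2 and 3 in lymph node. In lung it did so for number 4 alone. Whether libraries of the same number share a batch was not tested. Members with few counts, such as Rpl24, are limited by depth, and 4 libraries a group limit all calls.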

Other observations

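Processed copies of 2 members differed between lung and lymph node NK cells of mice given PBS (positions on GRCm38 as the deposited table gives them). Rpl31-ps6 (chr5:123466509-123466886) had 0 counts in each LN PBS library and 15, 39, 20 and 25 in lung PBS. On total counts that is at least 34.0-fold higher, taking 3 counts over the LN PBS group as the floor (adjusted p = 0.00517, edgeR). Rpl27a-ps1 (chr10:61309830-61310276) had 0, 0, 1 and 1 counts in LN PBS and 13, 32, 26 and 67 in lung PBS. Its ratio was 71.1, and the exact 95% interval, which covers counting error only, ran from 19.3 to 593 (adjusted p = 0.00612, edgeR). With DT, Rpl31-ps6 had 44, 152, 56 and 24 counts in lung and 0, 2, 1 and 0 in lymph node, and Rpl27a-ps1 had 50, 102, 39 and 44 against 5, 5, 5 and 0. These DT groups were not compared by a test. In GENCODE M21 no other gene overlaps either copy. They were the 2 called among the 29 tested pseudogenes, where 2.7% of all tested genes were called higher and 0.904% lower. Both were chosen after the values of these pseudogenes were seen, and tissue and Liberase digestion of the lungs cannot be told apart.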
